A study of Homo sapiens with 2 samples.

Results

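A stretch of 100 kb on the short arm of human chromosome 19 (hg19, chr19:1400001-1500000) held 82 SOX2 PAR-CLIP sites on its plus strand, of 72794 sites in the whole series. These numbers are summed over both lists, so a place found in both is counted once for each. The stretch carries the plus-strand genes DAZAP1, RPS15, APC2 and REEP6. It was chosen by the number of sites that both deposited lists hold there on the plus strand, so those numbers and their excess over the minus strand are given as a description and without a test. Every site that lies wholly inside the stretch was taken, and none was filtered out. The plus-strand sites were 14 of 16964 in replicate 1 and 68 of 55830 in replicate 2. The minus strand of the same stretch held 2 and 5 sites.

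Both libraries belong to 1 group and came from independent experiments on HEK293T cells, a human line from embryonic kidney in which SV40 large T antigen is made, transfected with a plasmid for FLAG-tagged SOX2. The cells were fed 0.2 mM 4-thiouridine for 16 hours before irradiation at 365 nm, and RNA that was bound to the tagged protein was trimmed with RNase T1 and sequenced. SOX2 was supplied from a plasmid, and no library without it is used here, so background crosslinking and the abundance of each RNA were not measured. With 1 group there is no contrast between conditions; the comparisons are between the libraries, between the strands and with the rest of each list.

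PAR-CLIP marks places where a protein lies close enough to a labelled uridine of an RNA to be crosslinked to it, and RNase T1, which cuts after guanosine, leaves short fragments around those places. The crosslinked RNA can be a pre-mRNA that still has its introns or a mature mRNA, so sites can lie anywhere between the start and the end of a gene. SOX2 is an HMG-box transcription factor of pluripotent and neural progenitor cells and is best known for binding DNA.

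The member genes differ in what they encode. DAZAP1 is an RNA-binding protein with RNA recognition motifs that takes part in splicing and translation. RPS15 is a protein of the small ribosomal subunit and is made in nearly every cell. APC2 is a relative of the tumour suppressor APC that acts on beta-catenin and the cytoskeleton, chiefly in neurons. REEP6 is a membrane protein of the endoplasmic reticulum with a known role in rod photoreceptors. In the GENCODE annotation of GRCh38 they follow each other from lower to higher positions as DAZAP1 (ENSG00000071626.16), RPS15 (ENSG00000115268.9), APC2 (ENSG00000115266.11) and REEP6 (ENSG00000115255.10), with 1 further plus-strand gene, a long noncoding RNA, between RPS15 and APC2. From DAZAP1 to REEP6 that annotation holds 3 minus-strand genes, all between APC2 and REEP6 in order of their starts. They are the protein-coding C19orf25 and PCSK4, a proprotein convertase, and an antisense RNA. Genes before DAZAP1 or after REEP6 were not listed, so the stretch may hold others on either strand. That annotation is on another build than the lists. Its coordinates were not used, so the sites below are given by position and no site is assigned to DAZAP1, RPS15, APC2 or REEP6, to an exon or to an intron.

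Each site carries a deposited score, a whole number of at least 5. No source used here says what the score counts, so read depth is unknown; the scores of the whole lists summed to 5365592 in replicate 1 and 5192778 in replicate 2.

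The plus-strand sites were crowded into the lower part of the stretch in both libraries. In replicate 1, the 10 kb from 1420001 to 1430000 held 6 of the 14 sites, the 10 kb above it held 4, and the 10 kb below it held 2. In replicate 2 the same 3 bins held 34, 12 and 11 of the 68 sites. The bin from 1420001 to 1430000 thus held 42.9% of the plus-strand sites of replicate 1 and 50.0% of those of replicate 2, and it took 62.4% and 56.5% of their summed score. Above 1450000, replicate 1 had 1 plus-strand site and replicate 2 had 3.

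**Figure D1:**
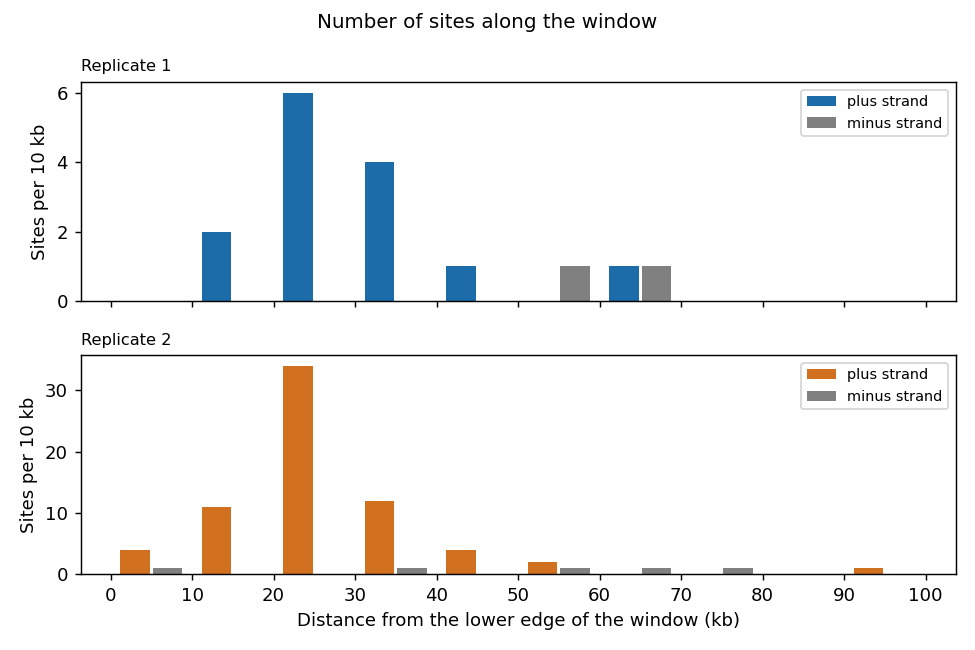
Number of sites per 10 kb (vertical axes, which differ in scale) along the 100 kb window, by distance from its lower edge in kb, for replicate 1 (top) and replicate 2 (bottom). Coloured bars stand for the plus strand and grey bars for the minus strand; the tallest bars, with 6 and 34 sites, are in the same bin in both replicates.

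When sites of either list were joined into 1 group wherever no more than 2 kb lay between them, the plus strand showed 8 groups. The number depends on the gap allowed: it was 16 with gaps of up to 1 kb and 4 with gaps of up to 5 kb. The lowest and longest group ran from 1408224 to 1430174, or 21951 nt. It held 8 sites of replicate 1 with scores from 12 to 954 and 50 sites of replicate 2 with scores from 8 to 180. A small group from 1432606 to 1435357 followed, with 1 site in replicate 1 (score 48) and 3 in replicate 2 (scores from 6 to 47).

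The third group was short and, averaged over its length, held more sites per kb than the lowest group. It ran from 1438376 to 1440877, or 2502 nt, and held 4 sites of replicate 1 with scores from 21 to 553 and 10 sites of replicate 2 with scores from 12 to 219. It had 1.60 and 4.00 sites per kb, against 0.364 and 2.28 in the lowest group. These are averages over the whole length of each group, and the lowest group was uneven. Of its 50 replicate 2 sites, 34 lay in the 10 kb from 1420001 to 1430000. The averages therefore do not show that the third group was the densest part of the stretch. This group took 32.3% of the summed plus-strand score in replicate 1 and 21.5% in replicate 2.

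The other 5 groups were single sites or a close pair and were seen in 1 library each. Replicate 2 alone had 2 sites between 1444781 and 1445032, with scores of 19 and 47. It also had 1 site each at 1450522 to 1450544 (score 30), 1452550 to 1452566 (score 14) and 1495322 to 1495337 (score 20). Replicate 1 alone had the site at 1460464 to 1460477, with a score of 13. No minus-strand site of either list fell inside any of the 8 plus-strand groups.

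**Figure D2:**
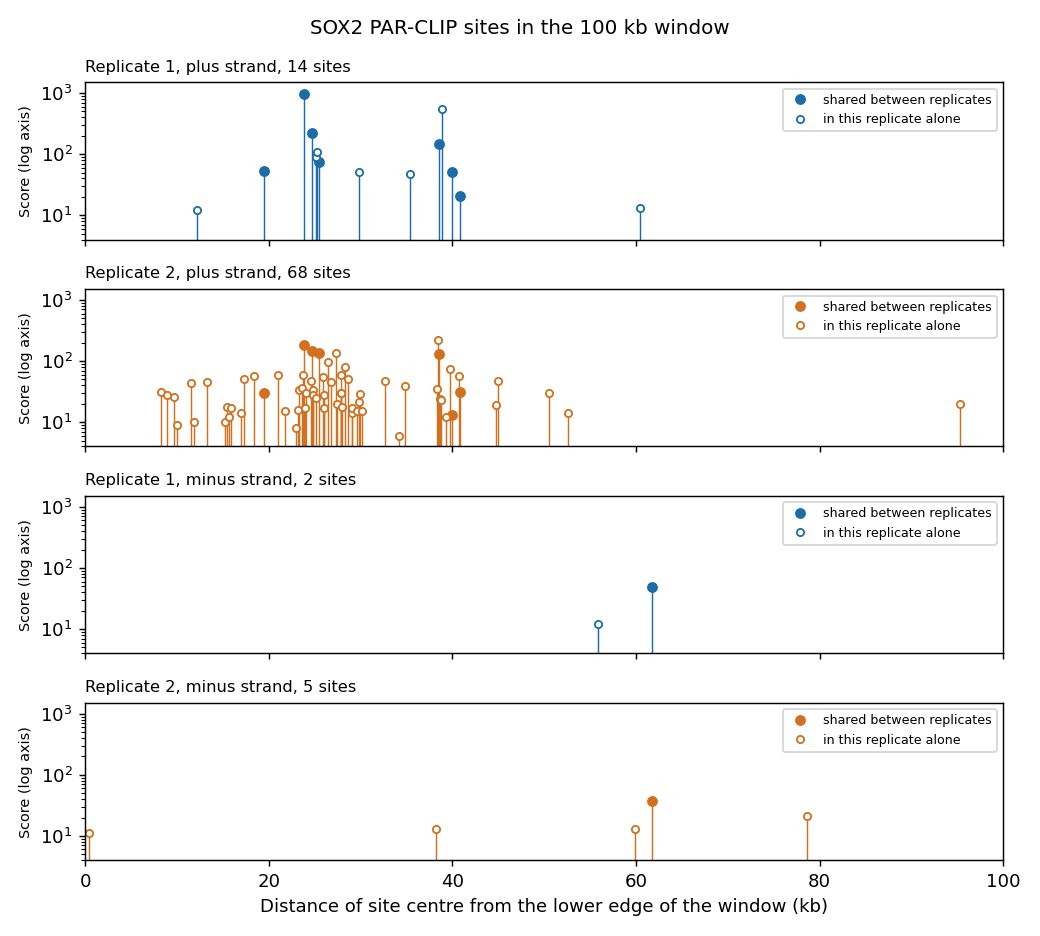
Score of each site (log axis) by the distance of its centre from the lower edge of the window in kb, in 4 panels for the 2 replicates and strands. Filled circles are sites found in both replicates (an overlap of 1 nt or more, strands matching), 7 on the plus strand of each replicate, and open circles are the others.

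Within the lists the plus-strand sites lay close to each other. In replicate 2, 63 of 68 (92.6%) had a same-strand neighbour in that list no more than 1 kb away, against 53.1% of the whole list. In replicate 1 the corresponding numbers were 9 of 14 (64.3%) and 21.5%. The gap between neighbouring plus-strand sites of the stretch had a median of 319 nt in replicate 2, from 6 to 42755 nt, and of 1084 nt in replicate 1, from 64 to 19586 nt. Since the stretch was chosen for many sites, close spacing follows in part from the choice.

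The site names reflect the same crowding and are not separate evidence of it. In both lists a name is a number followed by a point and a second number, and neighbouring sites can have the first number in common; no source used here says what it stands for. In replicate 2, 19 of the 68 plus-strand sites (27.9%) had it in common with another site, against 11.4% of the list. A run of 3 such sites lay at 1427815 to 1427839, 1427846 to 1427865 and 1427873 to 1427889, with scores of 30, 60 and 30. None of the 14 sites of replicate 1 had a number in common, against 2.50% of that list, and 14 sites are too few to compare with so small a share. The sites of the stretch with a number in common were close neighbours, so the higher share in replicate 2 also follows in part from the choice of a dense stretch.

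The middle score of the stretch was above that of each list. The plus-strand median was 64 in replicate 1, with quartiles of 48.75 and 139.25, against 26 for the whole list. In replicate 2 it was 30, with quartiles of 17 and 47.75, against 19. Of the plus-strand sites, 11 of 14 (78.6%) in replicate 1 and 47 of 68 (69.1%) in replicate 2 were at or above the median of their list, a level reached by 51.4% and 52.1% of all sites. Sites of one RNA are not independent and the choice of the stretch depends on listed sites, so these shares were not tested.

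High scores were less frequent in the larger list, as over all sites. Scores of at least 100 were found in 5 of the 14 plus-strand sites of replicate 1 (35.7%, against 14.8% of the list) and in 6 of the 68 of replicate 2 (8.82%, against 7.34%). The top score was 954 in replicate 1 and 219 in replicate 2, while the lists reach 1560568 and 702704. The plus-strand sites summed to a score of 2399 in replicate 1 and 2887 in replicate 2, or 0.0447% and 0.0556% of the list sums. These score shares were below the site shares, as the plus-strand sites were 0.0825% and 0.122% of the sites of their lists. In the stretch, replicate 2 had 4.86-fold as many plus-strand sites as replicate 1, with 1.20-fold the summed score. Over the whole lists it had 3.29-fold as many sites and a slightly lower summed score, 5192778 against 5365592.

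**Figure D3:**
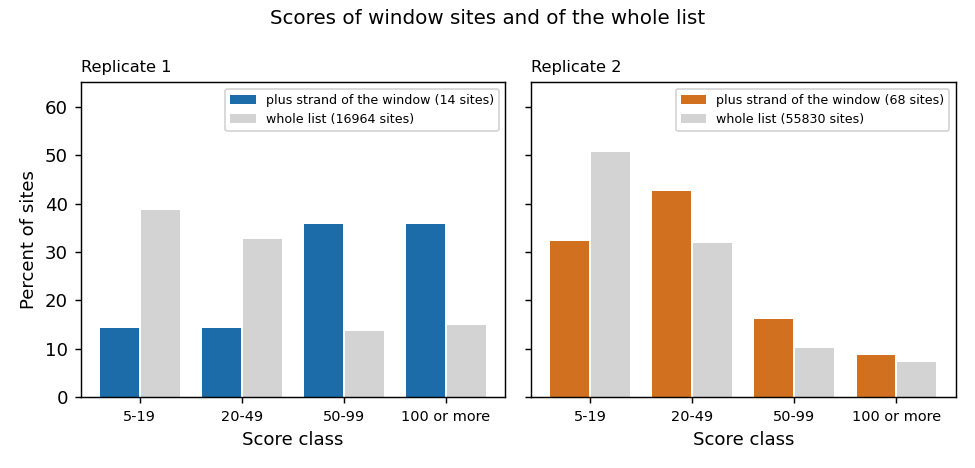
Percent of sites (vertical axis) in 4 classes of score, for the plus strand of the window (coloured) and the whole list (grey), in replicate 1 (left) and replicate 2 (right). In replicate 1, 35.7% of window sites and 14.8% of the list score 100 or more; in replicate 2 the bars of that class are at 8.82% and 7.34%.

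Of the 14 plus-strand sites in the smaller list, 7 were found again in the larger one. A site was counted as shared when its interval and that of a same-strand site in the other list overlapped by 1 nt or more. The share in replicate 1 was thus 50.0% (95% Wilson interval 26.8 to 73.2), against 21.3% of the whole list. In replicate 2, 7 of the 68 were shared (10.3%, 5.08 to 19.8), against 6.50% of the list. These intervals cover counting error over sites only. Sites of one RNA are not independent and a stretch chosen for many sites in both lists has more room for overlap, so the shares were not tested against those of the lists.

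Over the whole lists, sites with higher scores were shared more often, and the part of score in the share seen here was not tested. If the plus-strand sites had been shared at the rate of their own score class in the whole list, 33.3% of those in replicate 1 and 8.05% of those in replicate 2 would be shared. Dense stretches also differ widely in this measure. Among the 13 other 100 kb strand windows with at least 10 sites in replicate 1 and 50 in replicate 2, the share of replicate 1 sites that were shared had a median of 29.4%, from 18.75% to 60.3%. It was higher than here in 2 of them and equal in 3. For replicate 2 sites the median was 8.20%, from 2.90% to 34.2%, against 10.3% here, and 4 of the windows were higher.

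The strongest shared site lay in the lowest group, spanning 1423857 to 1423874 in replicate 1 and beginning and ending 1 nt further out in replicate 2. Its score was 954 in replicate 1 and 180 in replicate 2. In replicate 1 it ranked 276 of 16964 and in replicate 2 it ranked 1928 of 55830. It was the highest plus-strand score of the stretch in replicate 1 and the next to highest in replicate 2.

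The next shared site of that group had the same end in both lists, 1424755, but its start was 19 nt lower in replicate 1. It was 35 nt long in replicate 1, the longest plus-strand site of the stretch, and scored 219 there; in replicate 2 it was 16 nt long and scored 144. The shared site at 1425491 to 1425505 of replicate 1, whose partner spans 1425492 to 1425509, went the other way, with scores of 74 and 137. The site at 1419446 to 1419460 in replicate 1, and from 1419444 with the same end in replicate 2, scored 54 and 30. All 4 of these sites are therefore in the group from 1408224 to 1430174.

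The other 3 shared sites were in the short group from 1438376 to 1440877. Its strongest shared site, at 1438488 to 1438503 with a partner at 1438489 to 1438509, had scores of 149 in replicate 1 and 132 in replicate 2. The site at 1439966 to 1439980, paired with 1439970 to 1439992, scored 51 and 13. The last, at 1440863 to 1440877 and 1440852 to 1440865, overlapped by only 3 nt and scored 21 and 31. Replicate 1 had the higher score at 5 of the 7 shared sites and replicate 2 at the other 2; over the list, replicate 1 was higher at 2033 of the 3621 shared sites and replicate 2 at 1549. Their median log2 ratio of replicate 2 to replicate 1 score was -0.60, against -0.21 over those of the list. Each library gives 1 value per site, so these differences were not tested. In 4 of the 7 pairs the starts were no more than 2 nt apart, against 43.4% of all shared sites.

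**Figure D4:**
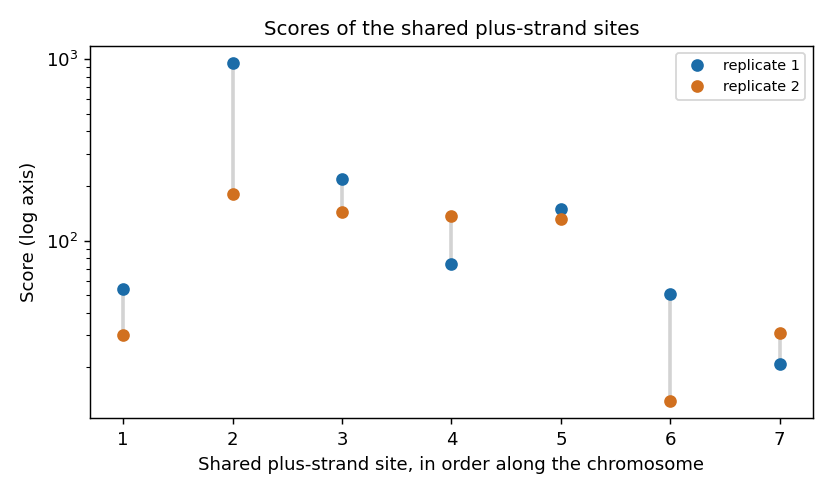
Scores (log axis) of the 7 plus-strand sites shared by the replicates, in order along the chromosome, with a grey line joining the values of a pair. Replicate 1 is higher at 5 sites and replicate 2 at 2; the largest distance is at the second site, with 954 and 180.

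Some strong sites had no partner. In replicate 1, the site at 1438867 to 1438881 scored 553, the next to highest plus-strand score of the stretch in that list, and the nearest replicate 2 site on the strand was 141 nt away with a score of 23. The site at 1425209 to 1425223 scored 110 and lay 82 nt from the nearest replicate 2 site, which scored 25. In replicate 2, the highest plus-strand score of the stretch, 219, was at 1438458 to 1438476 and had no partner, although the shared site at 1438489 began just 12 nt beyond its end. The replicate 2 site at 1427320 to 1427336 scored 133 and was not shared either.

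Of the 7 unshared plus-strand sites of replicate 1, 6 lay within 1 kb of a replicate 2 site. Of all 14, 10 (71.4%) were within 100 nt of a replicate 2 site on the strand, against 35.3% of the list, and 13 (92.9%) were within 1 kb, against 53.3%. The exception was the site at 1460464 to 1460477, with a gap of 7897 nt. Both the 10 and the 13 include the 7 shared sites, so these shares repeat in part the sharing given above. The density of replicate 2 sites, for which the stretch was chosen, makes such short distances more likely.

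The minus strand of the stretch held few sites in both libraries. Plus-strand sites made up 87.5% of all sites of the stretch in replicate 1 and 93.2% in replicate 2 (mean 90.3% ± 4.00, SD, n = 2). The minus-strand sites of replicate 1 were at 1455809 to 1455823, with a score of 12, and at 1461791 to 1461804, with a score of 49. The latter was listed at exactly the same position in replicate 2, where it scored 38, the highest of the 5 minus-strand sites there. The next scored 21, at 1478608 to 1478625, and 2 sites tied at a score of 13, at 1438191 to 1438207 and 1459915 to 1459928. The minus strand thus held 1 shared site, the only one of the 8 shared sites of both strands with identical edges. No minus-strand site reached a score of 100. Their median score was 30.5 in replicate 1, against 26 for the list, and 13 in replicate 2, against 19.

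Plus-strand sites outnumbered minus-strand sites in the lower part of the stretch and not in its upper part. From 1450001 to 1500000, replicate 1 had 1 plus-strand and 2 minus-strand sites, and replicate 2 had 3 of each. In the 4 next windows of 100 kb, from 1500001 to 1900000, replicate 1 had no plus-strand site and replicate 2 had 1, while the minus strand held 6, 5, 0 and 6 sites in replicate 1 and 44, 19, 1 and 24 in replicate 2. In the window after those, from 1900001 to 2000000, the plus strand again held more sites, with 7 against 0 in replicate 1 and 27 against 6 in replicate 2. Below the stretch, the window from 1300001 to 1400000 held 3 and 10 plus-strand sites, and the one before it held 11 and 43. At the lower edge, the last plus-strand site outside lay at 1394704 to 1394724 (score 86) in replicate 1 and at 1395473 to 1395486 (score 41) in replicate 2. The first inside lay at 1412176 to 1412192 (score 12) and 1408224 to 1408242 (score 31). At the upper edge, the last site inside scored 13 in replicate 1 and 20 in replicate 2. The first one outside lay at 1913250 to 1913275 (score 22) in replicate 1 and 1525245 to 1525264 (score 7) in replicate 2.

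By number of sites this was the densest 100 kb strand window of chromosome 19 in both lists. Over the genome it ranked 11 of 8145 windows with a site in replicate 1 and 8 of 10952 in replicate 2, ranks that the choice of the stretch used. By summed score, which the choice did not use, it ranked 132 and 123. The windows with the most similar site numbers, by the distance of log2(number + 1) over the 2 lists, were on chromosomes X, 17 and 12. The minus strand of chromosome X from 153200001 to 153300000 held 13 sites in replicate 1, 3 of them shared, and 60 in replicate 2. On chromosome 17 the minus strand from 79800001 to 79900000 held 16 and 79, again with 3 of the former shared. The plus strand of chromosome 12 from 53800001 to 53900000 held 12 and 59, with 6 of the former shared. The shared fraction therefore ranged from 18.75% to 50.0% among windows of like density, and whether the chromosome 19 stretch differs from them was not tested. The opposite strand of the windows on chromosomes X and 12 held 0 sites in either list. That of the chromosome 17 window held 4 and 16, against 2 and 5 for the stretch. A strong excess of 1 strand was thus not particular to the stretch.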

How the data were processed

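Site positions and a deposited score were used from 1 list per library, and scores were used as the authors deposited them. Per the submitters' processing notes, bcl2fastq and Bowtie 1.1.2 were used with the build hg19; no source used here names the site caller or its thresholds. Libraries were amplified with 18 PCR cycles, per the labels' protocols. Start positions were converted to counting from 1.

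Overlaps, gaps and medians were computed in Python 3.11.15 with numpy 2.4.6, pandas 2.3.3 and scipy 1.17.1; figures were drawn with matplotlib 3.10.9. The code for overlap finding was run on simulated lists of 16964 sites. In each, all 3392 sites placed so as to overlap a replicate 2 site were found. The other sites were placed where no overlap was possible. This checks that the code runs correctly and says nothing about the shares reported above. No test was run, because 2 libraries of 1 group hold no contrast and the window was chosen from these lists. The window, the members and the rules for naming sites were chosen with earlier results of these data known. Named were all shared pairs, the 5 highest plus-strand scores of each list, the minus-strand sites of replicate 1 and the 3 highest of replicate 2 (4 with a tie), edge sites and the 3 windows of most similar site numbers; the run of 3 sites with a common name number and the groups were named after their values were seen. The supplied annotation is on GRCh38: the largest site end on chromosome 1, 249168105, lies beyond its last feature there, at 248937043.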

Additional observations from a re-analysis of the deposited data

How the results depend on the processing

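The share of plus-strand sites found in both libraries depended on the overlap rule. Under the rule used above it was 50.0% in replicate 1 and 10.3% in replicate 2. Every alternative stayed within the interval given above, but with 14 sites in replicate 1 that interval runs from 26.8 to 73.2. Staying within so wide an interval does not show that the share is stable. In replicate 1 the share ranged from 28.6% with at least 50% of both sites in common to 64.3% with gaps of up to 50 nt. In replicate 2 it ranged from 5.88% to 14.7% under the same settings. With strand ignored the share did not move, and with sites below their list's median score left out it was 45.5% and 10.6%. The share of the whole list was not computed under these alternatives. The alternative values therefore cannot be set against the list shares given above. The mean plus-strand share lay between 87.5% and 93.8% over score minimums, moves of the window by 10 kb, merging of sites closer than 50 nt and leaving out either replicate. The number of plus-strand groups, 8 with gaps of up to 2 kb, was 16 with gaps of up to 1 kb and 4 with gaps of up to 5 kb; it was 7 without either replicate and 9 with sites below the median left out. The members' median score was 2.02 times that of their list on average, and 2.03 times per nt. The averages hide opposite moves: per nt the ratio rose from 2.46 to 2.67 in replicate 1 and fell from 1.58 to 1.40 in replicate 2. The mean rank among strand windows was 9.5 by number of sites, 8.5 with sites below the median left out and 127.5 by summed score. Leaving out a replicate leaves no shared sites to compute. No paired analysis was possible because there is only 1 group. With depth unknown, sites missing from 1 list cannot be told apart from sites below its threshold.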
